A study of Mus musculus with 6 samples.

Results

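Neat1 is a long noncoding RNA of the nucleus, and its binding by Hnrnpa2b1 was followed here in peak lists from C2C12 cells before and after muscle differentiation. A Neat1 peak was any peak on the minus strand of chromosome 19 lying wholly between 5824600 and 5845600 in the mouse mm9 build. These limits gave 336 of the 3895 peaks in the 4 lists. No peak crossed either limit, and no list had a peak on the opposite strand. Peaks with a midpoint above 5842290 lie in the part common to the short and the long Neat1 isoform, and those below it lie in the long isoform only. Neat1 was selected on its number of peaks in these lists, so the number of peaks in each library is a description and carries no test.

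The peaks come from enhanced UV crosslinking and immunoprecipitation (eCLIP). In this assay an antibody recovers an RNA-binding protein together with the RNA crosslinked to it, and the recovered RNA fragments are sequenced beside an input sample of similar fragment size taken before immunoprecipitation. C2C12 is a single mouse myoblast line, whose cells leave the cell cycle and fuse into myotubes when serum is withdrawn. There were 2 immunoprecipitation libraries, A and B, from growing cells (myoblasts, labelled C2C12) and 2 from differentiated C2C12 cells, all made with the same abcam antibody to hnRNP A2/B1 and with no genetic change. Per the labels, growing cells had fetal bovine serum, and differentiated cells had horse serum and ITS for 8 to 10 days. The methods of the study name fewer days, and they describe lysis of whole cells where the labels describe isolated nuclei. Which description fits these libraries is not known. The peak lists hold no expression values, and markers of myoblasts and myotubes were not analysed here.

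Hnrnpa2b1 belongs to the hnRNP proteins, which coat RNA in the nucleus. It binds UAG-type and AGG-type motifs and acts in splicing, RNA localisation and RNA stability. Neat1 is transcribed from a single promoter as isoforms that share their 5′ end. The short isoform ends at a poly(A) site, and the long isoform runs past it to a 3′ end that RNase P cuts. The long isoform is the scaffold of paraspeckles, nuclear bodies that hold proteins such as NONO, SFPQ and PSPC1. Because only the RNA past the poly(A) site is unique to the long isoform, a peak in the common part cannot be assigned to either isoform.

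The 3 landmarks that define these parts are printed from the RefSeq annotation of GRCm38.p6, 30 nt each, in the direction of the RNA. The peak lists are on mm9, so peaks were not placed on these sequences.
5′ end of the short isoform, 2 nt upstream of the annotated start of the long one, at chr19:5845451-5845480, with UAG and AGG in capitals: gUAGGaguUAGugacaAGGAGGgcucgcuc
Poly(A) signal of the short isoform, at chr19:5842301-5842330, with the signal in capitals: gcaaAAUAAAgguuugagauugaagcuucu
3′ end of the long isoform, at chr19:5824708-5824737, with the A-rich end in capitals: gagaacgaacgugagcaggAAAAAGCAAAA
The first line shows that Neat1 opens with several copies of the motifs that Hnrnpa2b1 is known to bind. Motifs this short are common. Among the lincRNA transcripts compared below, 99.9% held UAG and 100% held AGG. In the annotation the short isoform is 3185 nt long, the poly(A) signal begins 31 nt before its 3′ end, and the long isoform is 20771 nt long.

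Both motifs were counted over the whole annotated RNA, on the transcribed strand, with overlapping copies counted. UAG occurred 35 times in the short isoform, or 11.0 per kb, and 203 times in the 17588 nt found in the long isoform only, or 11.5 per kb. AGG occurred 87 times in the short isoform, or 27.3 per kb, and 326 times in the long-only sequence, or 18.5 per kb. The density of UAG was thus about the same in both parts, while that of AGG was higher in the common part. The content of G and C also differed, at 51.2% in the short isoform and 46.6% in the long-only sequence. Over 3825 GENCODE lincRNA transcripts of the same build that were at least 1 kb long, the median was 10.6 UAG and 19.1 AGG per kb. The middle 50% of these transcripts had 15.5 to 22.4 AGG per kb, which the common part of Neat1 exceeded and the long-only part did not. The motif densities describe the RNA and do not mark binding sites.

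Differentiated cells had more Neat1 peaks than myoblasts in both replicates. The myoblast lists held 40 and 36 Neat1 peaks in replicates A and B, and the differentiated lists held 136 and 124. The means were 38 ± 2.83 and 130 ± 8.49 (SD, n = 2 libraries each), a ratio of 3.42. Peaks were more numerous outside Neat1 too. The neighbouring Malat1 locus (5796075 to 5802668 on the same strand), another nuclear noncoding RNA, had 269 and 247 peaks in myoblasts and 446 and 337 in differentiated cells, a ratio of 1.52. All other loci together had 2.81 times as many. As a share of its list, Neat1 held 6.73% and 6.09% of the myoblast peaks and 9.07% and 10.2% of the differentiated peaks.

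The share of the list depended on how peaks were measured. The peak caller cut bound stretches into short touching segments, and the median Neat1 peak was 19, 14.5, 11 and 17 nt wide in myoblast A, myoblast B, differentiated A and differentiated B. By nucleotides, Neat1 peaks covered 900 and 900 nt in the myoblast lists and 1968 and 2899 nt in the differentiated lists, 2.70-fold more on average. As a share of all nucleotides covered by peaks, however, Neat1 held 4.60% and 4.35% in myoblasts and 3.39% and 4.31% in differentiated cells. The mean share of nucleotides was therefore lower after differentiation (3.85% against 4.47%), where the mean share of peaks was higher. These lists hold no read counts, and RNA level, sequencing depth and binding cannot be told apart as sources of a higher peak number.

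**Figure D1:**
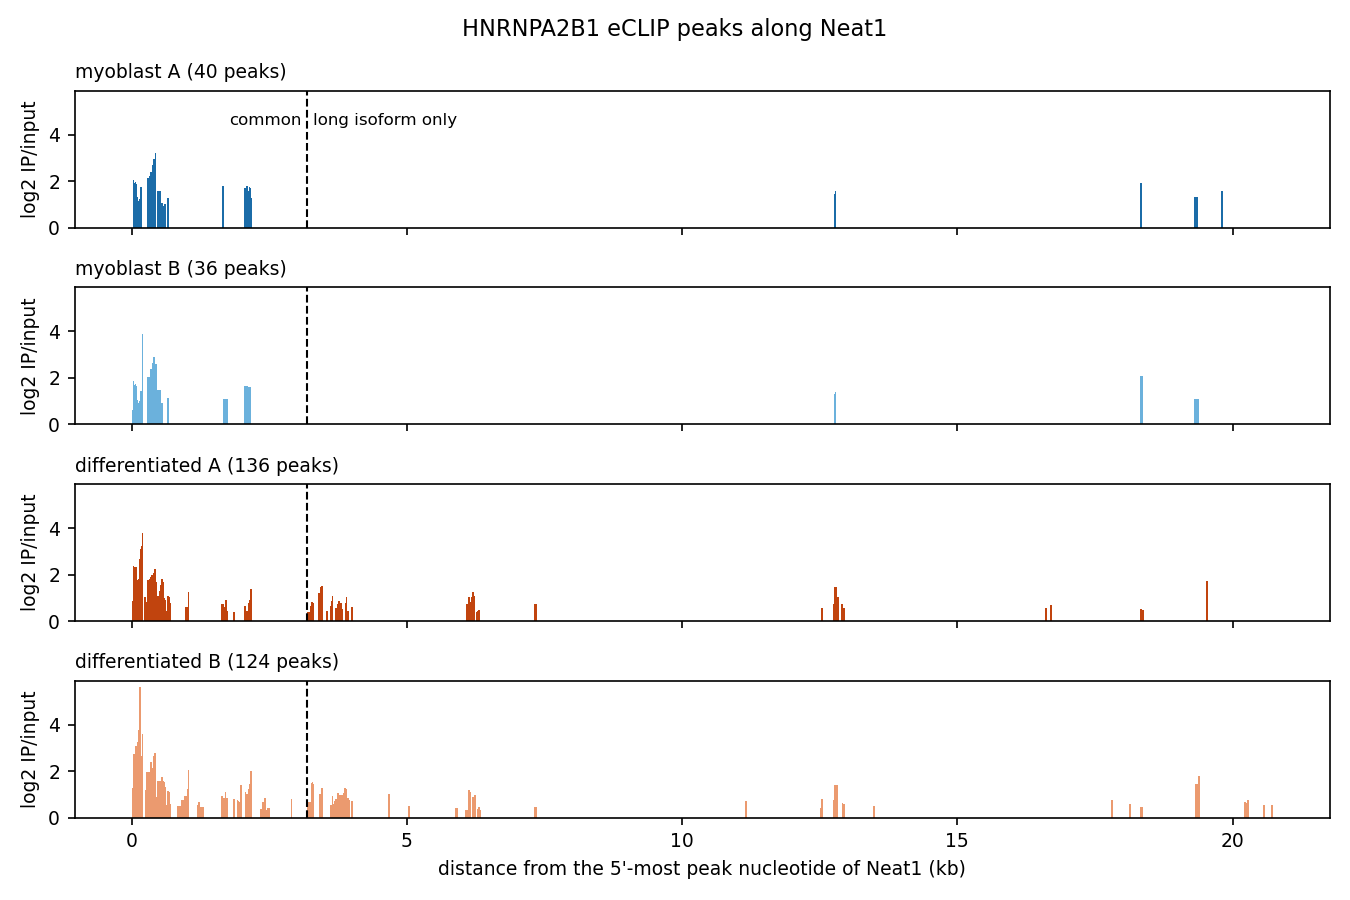
Each bar is 1 Hnrnpa2b1 peak on Neat1, placed by its distance in kb from the 5′-most peak nucleotide (0), with its log2 fold enrichment over input as height; the dashed line is the end of the part common to both isoforms. All 4 libraries have their tallest peaks within the first kb, and the differentiated libraries add many low peaks to the right of the line.

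By number, somewhat more of the added peaks lay in the part found in the long isoform only, with a mean gain of 51.5 peaks against 40.5 in the common part. Per kb, however, the much shorter common part gained more. In the common part, 3.31 kb long, there were 35 and 32 peaks in myoblasts and 78 and 70 in differentiated cells. In the long-only part, 17.69 kb long, there were 5 and 4 peaks in myoblasts and 58 and 54 in differentiated cells. The long-only part thus went from a mean of 4.5 to a mean of 56 peaks, and the common part from 33.5 to 74. The common part held 87.5% and 88.9% of the myoblast Neat1 peaks and 57.4% and 56.5% of the differentiated ones, a difference in means of -31.3 percentage points. The ranges of the states did not overlap (exact two-sided permutation test over libraries, p = 0.333, the smallest that 2 libraries against 2 allow). The 95% Wilson intervals, which cover at most counting error, ran from 73.9% to 94.5% and from 74.7% to 95.6% in the myoblast libraries. In the differentiated libraries they ran from 49.0% to 65.4% and from 47.7% to 64.9%. They take every peak as independent, although touching peaks were cut from the same bound stretch, so they are too narrow. With touching peaks joined, the 40 and 36 myoblast peaks were 11 and 10 stretches.

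Per unit of length the common part was the denser one in each library. It held 10.6 and 9.67 peaks per kb in myoblasts and 23.6 and 21.1 in differentiated cells. The long-only part held 0.283 and 0.226 peaks per kb in myoblasts and 3.28 and 3.05 in differentiated cells. The common part was therefore 37.4 and 42.8 times as dense as the long-only part in myoblasts, and 7.19 and 6.93 times as dense in differentiated cells (exact permutation p = 0.333, again the smallest possible). Nucleotides gave the same direction. Peaks covered 21.2% and 21.6% of the common part in myoblasts and 28.8% and 45.7% in differentiated cells, and 1.12%, 1.05%, 5.73% and 7.83% of the long-only part in the same order of libraries.

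**Figure D2:**
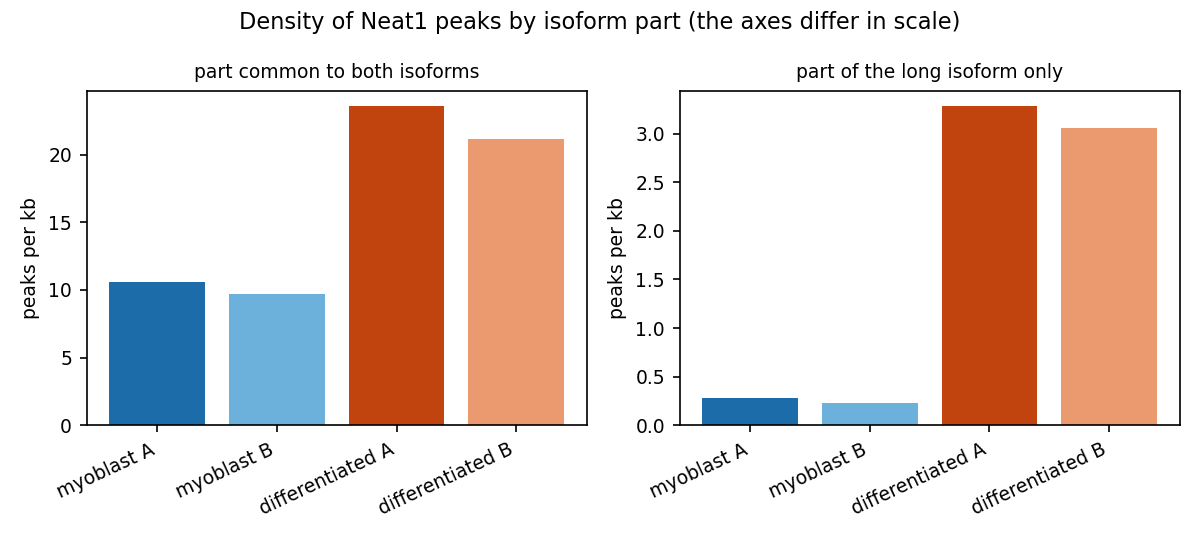
Bars give Neat1 peaks per kb in each library, in the 3.31 kb common to both isoforms (left) and the 17.69 kb of the long isoform only (right); each vertical axis starts at 0, and their scales differ. Both differentiated libraries stand above both myoblast libraries in each panel, from 0.226 and 0.283 to 3.05 and 3.28 peaks per kb in the long-only part.

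The long-only peaks of differentiated cells were weakly enriched over input. Their median log2 fold enrichment was 0.731 and 0.755, against 1.56 and 1.34 for the few long-only peaks of myoblasts. In the common part the medians overlapped between states, with 1.64 and 1.48 in myoblasts and 1.59 and 1.36 in differentiated cells (exact permutation p = 0.667). The median common peak exceeded the median long-only peak by 0.083 and 0.142 in myoblasts and by 0.862 and 0.605 in differentiated cells, all on the log2 scale (exact permutation p = 0.333). The strongest long-only peak was somewhat higher in both myoblast libraries. It reached 1.90 and 2.08 in myoblasts, out of 5 and 4 peaks. In differentiated cells it reached 1.73 and 1.78, out of 58 and 54. Common peaks reached 3.22, 3.88, 3.77 and 5.61.

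**Figure D3:**
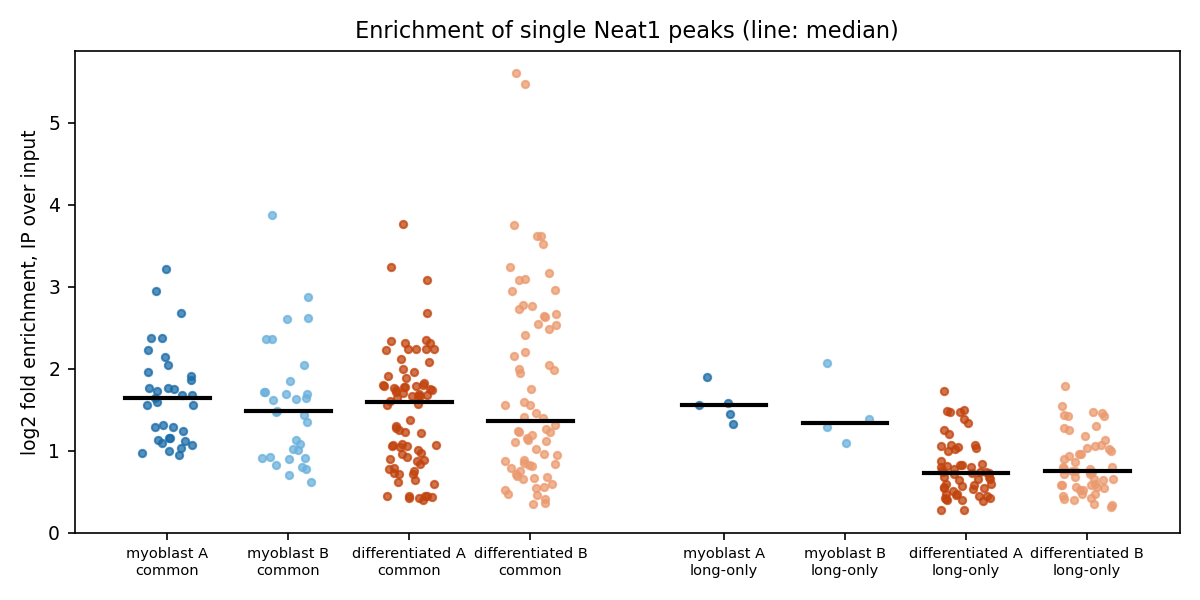
Each point is 1 Neat1 peak, with its log2 fold enrichment over input on the vertical axis and black lines at the medians, by library and isoform part; points are spread sideways for legibility. The medians of the common part lie between 1.36 and 1.64 in the 4 libraries, while those of the long-only part lie at 0.731 and 0.755 in differentiated cells and at 1.56 and 1.34 in myoblasts.

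Most of the surplus lay below the enrichment of any long-only peak seen in myoblasts. The weakest of those had a log2 fold enrichment of 1.10. At or above this level there were 5 and 4 long-only peaks in myoblasts and 9 and 12 in differentiated cells, and below it there were 49 and 42 in differentiated cells. When this level was required of every Neat1 peak, the common part held 85.3% and 83.3% of the peaks in myoblasts and 83.9% and 78.9% in differentiated cells. The difference of -31.3 percentage points between states was then -2.88, with overlapping ranges. This level was chosen after seeing the data, and as the minimum of the myoblast long-only peaks it can remove none of them, so it narrows the difference in part by construction. A minimum of 1, which was also added after seeing the data but is not set by those peaks, left 86.5% and 85.2% in myoblasts and 77.1% and 73.0% in differentiated cells, a difference of -10.8. At the level of 1.10 the Neat1 share of the list also turned, to a mean of 6.43% in myoblasts and 4.97% in differentiated cells. The weakest listed long-only peaks were at 1.32 and 1.10 in myoblasts and at 0.276 and 0.318 in differentiated cells, so weakly enriched long-only peaks passed the authors' p threshold in the differentiated lists only. A fixed p threshold passes a weaker enrichment where more reads cover a site, and the read counts behind these peaks are not in the lists.

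**Figure D4:**
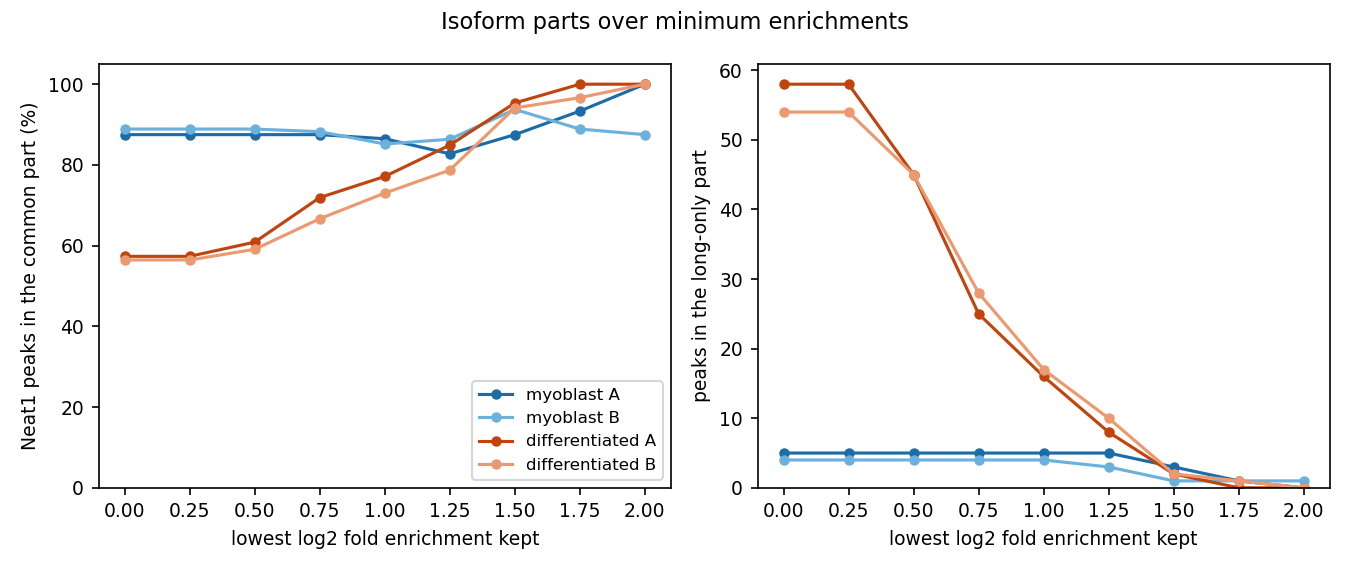
The left panel plots the percent of Neat1 peaks in the common part, and the right panel the number of long-only peaks, for peaks kept above a minimum log2 fold enrichment (horizontal axis) in each library. With all peaks kept the share is higher in myoblasts (87.5% and 88.9% against 57.4% and 56.5%). At a minimum of 1.25 the shares overlap, with 5 and 3 long-only peaks left in myoblasts and 8 and 10 in differentiated cells. At 1.5 the differentiated shares are the higher ones (95.3% and 94.1% against 87.5% and 93.8%). This order rests on very few long-only peaks, 3 and 1 in myoblasts and 2 and 2 in differentiated cells.

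The −log10 p values moved differently from the enrichments. This value comes from a test of the reads in a peak against the input, and its listed maximum is 400. In myoblasts 4 and 4 Neat1 peaks stood at 400, and in differentiated cells 32 and 27 did. Every one of them lay in the common part. As shares of the Neat1 peaks these are 10.0%, 11.1%, 23.5% and 21.8%. At Malat1 the maximum was given to 22.3% and 23.9% of the myoblast peaks and to all 446 and 337 differentiated peaks. At the other loci it was given to 3.86% and 4.87% of the myoblast peaks and to 8.29% and 10.7% of the differentiated ones. Below 400, the highest Neat1 values were 82.9, 61.5, 82.9 and 73.4.

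Touching or overlapping Neat1 peaks of the 4 lists were joined into 46 regions, 13 in the common part and 33 in the long-only part. A region with a peak in all 4 lists was found 7 times, 5 of them in the common part. Among all 1015 regions of the series 7.59% had this pattern. A peak in both differentiated lists and in no myoblast list was found in 13 Neat1 regions, 2 common and 11 long-only, and in 19.8% of all regions. The reverse pattern, both myoblast lists only, was found in 0 of the 46 Neat1 regions and in 6.9% of all regions. A further 24 regions had a peak in 1 differentiated list only, 18 of them in the long-only part, and 53.1% of all regions had this pattern. At 52.2% of the Neat1 regions, it was about as frequent as in the series. Of the other 2 regions, 1 was seen in myoblast A only and 1 in both myoblast lists and differentiated B.

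The region at the 5′ end was the only one of the 46 at the maximal −log10 p in all 4 libraries. It began at the 5′-most peak nucleotide and spanned 142 nt (chr19:5845338-5845479, mm9). It held 14 and 16 peaks in myoblasts and 18 and 14 in differentiated cells, so its peak number hardly differed between states. Its highest log2 fold enrichment was 2.04 and 1.85 in myoblasts and 2.68 and 5.61 in differentiated cells, and the peak at 5.61 was only 3 nt wide. By mean enrichment over the 4 libraries it came after the region next to it, with 3.05 against 3.25. All 4 and 4 myoblast peaks at the maximal −log10 p lay here, as did 16 and 13 of the differentiated ones.

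Next to it, a region of 44 nt (chr19:5845292-5845335) had highest log2 fold enrichments of 1.74 and 3.88 in myoblasts and 3.77 and 3.63 in differentiated cells. By this measure the 2 myoblast replicates were farther apart than the states. The value of 3.88 came from a peak only 7 nt wide, and those of 3.77 and 3.63 from peaks of 4 and 3 nt. With each peak weighted by its width, the mean log2 fold enrichment was 1.74 and 1.90 in myoblasts. In differentiated cells this mean was 3.10 and 2.76, with no overlap between the states. The highest −log10 p of this region was 16.4 and 14.5 in myoblasts and 400 in both differentiated lists. The longest region followed, 482 nt from 225 to 706 nt past the 5′-most peak nucleotide (chr19:5844773-5845254). It held 13 and 10 peaks in myoblasts and 39 and 20 in differentiated cells, yet its highest enrichment was 3.22 and 2.88 in myoblasts and 2.25 and 2.78 in differentiated cells. Together with smaller neighbours, these 3 regions fill the first kb, which held 28 and 28 Neat1 peaks in myoblasts and 62 and 42 in differentiated cells, or 70.0%, 77.8%, 45.6% and 33.9% of all Neat1 peaks.

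Farther along the common part, a region of 138 nt (chr19:5843304-5843441) was also present throughout. Its highest log2 fold enrichment was 1.77, 1.65, 1.38 and 2.00 in the 4 libraries, and its −log10 p was 18.5, 16.2, 28.5 and 73.4. The highest enrichments of the states overlapped while the −log10 p values did not. Weighted by peak width, however, mean enrichment was 1.65 and 1.63 in myoblasts. It was lower in differentiated cells, at 0.711 and 1.33. In 3 of the 4 libraries no peak lay in the last kb before the isoform split. The nearest common-part peaks had their midpoints 1031.5 and 1043.5 nt upstream of it in myoblasts and 1027.5 nt in differentiated A, and only differentiated B had one closer, at 297 nt. On the other side of the split, the next myoblast peaks were 9571 nt away in both replicates.

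Differentiated cells had a group of peaks just past the split, where the short isoform has ended. The first region of the group reached across the split by 3 nt and extended to 5842188 (chr19:5842188-5842293). It had no myoblast peak, and its highest log2 fold enrichment was 0.815 and 1.55 in differentiated A and B. All 5 and 5 of its peaks had midpoints on the long-only side, the nearest at 25 and 38.5 nt from the split. A second region of the group (chr19:5842007-5842091) had 1.50 and 1.30. In the fourth kb of the profile, from 3 to 4 kb past the 5′-most peak nucleotide, peaks covered 0 and 0 nt in myoblasts and 499 and 534 nt in differentiated cells, from 25 and 20 peaks. This was the most covered kb outside the first in both differentiated libraries. The absence of a listed myoblast peak means that none passed the authors' threshold, not that no Hnrnpa2b1 was bound.

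Of the common-part regions seen in both differentiated lists only, the one with the higher maximum lay 899 to 1019 nt from the 5′-most peak nucleotide (chr19:5844460-5844580). Its highest log2 fold enrichments were 1.26 and 2.05. The corresponding −log10 p values were 18.1 and 50.4. Both maxima came from a peak only 3 nt wide, and weighted by peak width the mean enrichment was 0.650 and 0.944. Together with the regions just past the split, it makes up the 3 regions with the highest maxima among the 13 with this pattern.

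Deep within the long isoform, a region of 86 nt was found in all 4 libraries, 12739 to 12824 nt from the 5′-most peak nucleotide (chr19:5832655-5832740). Its highest log2 fold enrichment was 1.56 and 1.39 in myoblasts and 1.48 and 1.43 in differentiated cells, so the states overlapped. Its highest −log10 p, in contrast, was 6.92 and 5.54 in myoblasts and 63.4 and 64.1 in differentiated cells. The enrichment of this long-only region was thus alike in both states, while its −log10 p went from just above the lowest listed value of 5.00 to far above it. In the same kb of the profile, peaks covered 40 and 42 nt in myoblasts and 158 and 199 nt in differentiated cells.

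Toward the 3′ end a second long-only region was present in all 4 libraries (chr19:5827107-5827162), with lower enrichment in differentiated cells. Its highest log2 fold enrichment was 1.90 and 2.08 in myoblasts and 0.53 and 0.45 in differentiated cells, with no overlap between the states. Its highest −log10 p did overlap, with 8.64 and 10.5 in myoblasts and 11.5 and 7.76 in differentiated cells. This region was named after its values were seen, because it and the region above are the only long-only regions shared by all 4 libraries. The last Neat1 region, at chr19:5824777-5824780, had a single peak in differentiated B with a log2 fold enrichment of 0.552. Over the whole window, the longest stretches without any peak were 3790 and 3114 nt, both in the long-only part.

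**Figure D5:**
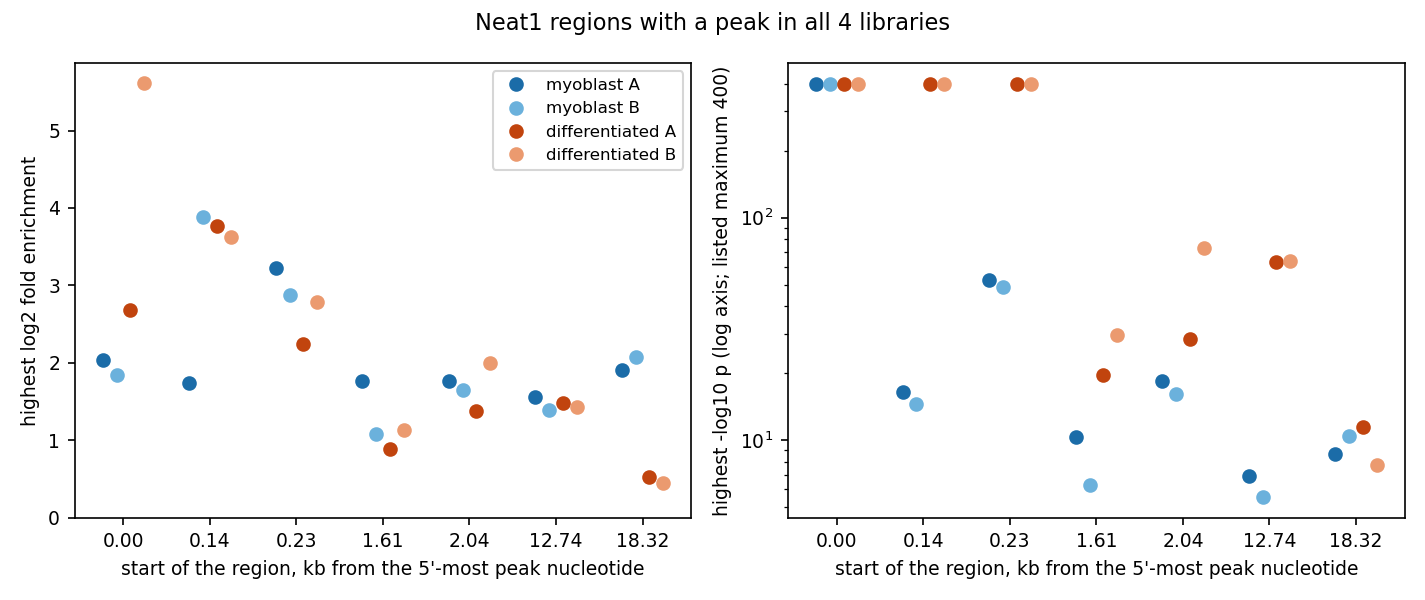
The 7 Neat1 regions with a peak in all 4 libraries are ordered along the RNA by their start (kb from the 5′-most peak nucleotide), with 1 point for each library; the left panel gives the highest log2 fold enrichment and the right panel the highest −log10 p on a log axis that stops at the listed maximum of 400. The highest enrichments of the states overlap in 4 regions, whereas −log10 p is higher in both differentiated libraries in 5 regions.

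Over the 7 shared regions, the highest enrichment did not move one way. It was higher in both differentiated libraries than in both myoblast libraries in 1 region and lower in 2, against 31.2% and 49.4% of the 77 regions shared by all 4 lists of the series. The median difference over the 7 regions was -0.02 on the log2 scale, and -0.25 over the 77. These values rest on the highest peak of each region. Weighted by peak width, mean enrichment separated the states in each of the 7 regions. It was higher after differentiation at the 5′ end and in the region next to it, and lower in the others. The separation was narrow in the region starting at 12739 nt. Its means were 1.50 and 1.34 in myoblasts and 1.31 and 1.33 in differentiated cells. Such means run over listed peaks only, which did not cover the same nucleotides in each library. In this region they covered 40 and 42 nt in myoblasts and 76 and 86 nt in differentiated cells. At the 5′ end and in the region of 138 nt the covered lengths overlapped between states. How far unequal coverage moved the weighted means was not tested. The −log10 p was higher in both differentiated libraries in 5 of the 7, against 42.9% of the 77. The region at the 5′ end stood at 400 in all 4 libraries and could not rise. The maximum bears on the 42.9% too, which is 33 regions out of all 77. A myoblast value below 400 was found in 60 of the 77, and in 6 of the 7 Neat1 regions.

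Neat1 peaks of both myoblast replicates and of differentiated A were nearly all overlapped by the other replicate, and those of differentiated B less often. A peak of the other replicate overlapped 37 of 40 and 35 of 36 myoblast Neat1 peaks, or 92.5% and 97.2%. It overlapped 129 of 136 peaks of differentiated A (94.9%, 95% Wilson interval 89.8% to 97.5%) but 87 of 124 of differentiated B (70.2%, 61.6% to 77.5%). These intervals also take touching peaks as independent and are too narrow. The surplus of differentiated B lay in both parts, with 53 of 70 common and 34 of 54 long-only peaks overlapped. For the whole lists the shares were 87.2%, 88.5%, 72.0% and 67.0%. Nearly all myoblast Neat1 peaks were also overlapped by a differentiated peak, from 95% to 100% by pair of libraries. Over the whole lists this share was 68.5% to 72.2%. Of the differentiated Neat1 peaks, 34.7% to 52.2% were overlapped by a myoblast peak, against 33.8% to 38.5% over the whole lists. For differentiated B against myoblast A both shares were 34.7%.

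The enrichments of matched Neat1 peaks were more alike between replicates than between states. The labels list 1 input sample for each state, while the methods of the study describe an input for every replicate. Where replicates were divided by the same input, their enrichments share it, and its part in these correlations was not tested. Among peaks that were each other's best overlap, Spearman's rho of the log2 fold enrichment was 0.947 between the myoblast replicates (32 peaks) and 0.863 between the differentiated replicates (79 peaks). Between the states it ranged from -0.0903 to 0.260 over 29 to 35 peaks. Covered nucleotides in 21 windows of 1 kb gave 0.998 within myoblasts, 0.814 within differentiated cells and 0.613 to 0.634 between states. These values describe neighbouring peaks of 1 RNA, which share libraries and are not independent.

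Among 20 loci with at least 20 peaks, the distribution of peaks over the 4 libraries was most like that of Neat1 at 3 loci, given by position because an annotation of the mm9 build was not used here. The closest (chromosome 10, plus strand, 128391134 to 128394259) had 3 and 4 myoblast peaks and 9 and 8 differentiated peaks (Euclidean distance of the library shares 0.0758). A locus of chromosome 6 (minus strand, 51412474 to 51415235) had 3, 3, 8 and 10 peaks in the same order (0.0879). The third (chromosome 4, plus strand, 134481583 to 134482246) had 4, 3, 7 and 7 (0.113). Each had fewer than 25 peaks in all, against 336 for Neat1. Malat1 was farther from Neat1 at 0.174.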

How the data were processed

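The authors trimmed adapters, removed reads from repetitive elements, aligned the rest to mm9 with STAR, removed PCR duplicates and identified peaks with CLIPper in each of 4 immunoprecipitation libraries. The authors deposited 2 values per peak, a −log10 p-value against size-matched input, from 5.00 up to 400, and a log2 fold enrichment over that input. The methods name a stricter threshold on p after Bonferroni correction, and it is unclear if the listed values are corrected. Columns have no header and were identified from their values.

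Peaks were selected by position, split by midpoint, and compared by counts, covered nucleotides and overlaps of at least 1 nt on the same strand. Differences between states were tested by exact permutation of libraries (two-sided). Named regions were the 5 with the highest mean enrichment among regions in all lists, the 3 highest among regions of a single state, the first, the last and the one across the split. The members, lists and tests were chosen with earlier results of these data known. Input samples were not analysed here. Without an mm9 annotation, paraspeckle protein genes and cell state markers were not analysed here, and bound sequences were not read. Removing repeat reads can lower coverage of repeats within Neat1. Read totals were not used, so the depth behind a peak is unknown. Functions were tested on simulated lists. Tools were Python 3.11.15 with scipy 1.17.1, numpy 2.4.6 and pandas 2.3.3, and figures were drawn in matplotlib 3.10.9.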

Additional observations from a re-analysis of the deposited data

How the results depend on the processing

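Of 54 recomputed values of results without a test, 32 stayed about the same, 20 moved and 2 reversed. Of 38 recomputed values of tested results, 37 kept their sign and 1 was 0, and 10 differed from the reported value by more than 1.5 times. Both counts include the replicate block, which pairs libraries by letter. It can change a p but not a value, so its values were bound to stay the same. No p could pass a threshold in this design, so the tested results are judged by size. The settings concerning enrichment of at least 1, enrichment of at least the weakest myoblast long-only peak, and peaks at the maximal −log10 p were added after seeing the data. The ratio of Neat1 peak numbers (3.42) became 6.50 for a log2 fold enrichment of at least 3, 2.08 for at least 1, and 1.95 for at least the weakest myoblast long-only peak. The difference in the Neat1 share of the list (3.24 percentage points) became 5.04 for a −log10 p of at least 8, 2.02 for an enrichment of at least 3, 1.65 with touching peaks merged and 5.24 without peaks at 400. It reversed to -1.02 for an enrichment of at least 1, and to -1.46 for at least the weakest myoblast long-only peak. The ratio of covered nucleotides (2.70) became 1.24 for an enrichment of at least 1.

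The difference in the share of common peaks (-31.3) was -33.7 for a −log10 p of at least 8, -32.1 with touching peaks merged, -28.3 by nucleotides, and -42.5 without peaks at 400. With the split moved by 500 nt it was -31.7 or -22.1. It was -10.8 for an enrichment of at least 1, -2.88 for at least the weakest myoblast long-only peak, and 0 for at least 3, where no long-only peak remained in any list and the density ratio and enrichment difference could not be computed. The difference in density ratio (-33.0) was -104 for a −log10 p of at least 8, -8.07 with touching peaks merged, -14.2 by nucleotides, -16.2 for an enrichment of at least 1 and -4.88 for at least the weakest myoblast long-only peak. The difference in enrichment between the parts (0.62) was 0.15 without peaks at 400 and 0.28 for at least the weakest myoblast long-only peak. The share of peaks overlapped by the other replicate was 81.6% in myoblasts and 53.5% in differentiated cells for a reciprocal overlap of 50%, and 0% and 30.8% for an enrichment of at least 3. In differentiated cells it was 76.7% for an enrichment of at least 1 and 72.1% without peaks at 400. Regions in all 4 lists numbered 4 for a −log10 p of at least 8 and 0 for an enrichment of at least 3. Regions in both differentiated lists only numbered 0 for an enrichment of at least 3, 4 for at least 1 and 5 when regions up to 100 nt apart were joined, and 1 region appeared in both myoblast lists only for an enrichment of at least 1. The cause of these shifts was not tested.

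Leaving out each replicate gave 3.25 to 3.61 for the peak ratio, 2.66 to 3.83 for the share of the list, 2.19 to 3.22 for covered nucleotides, -32.0 to -30.6 for the common share, -35.7 to -30.4 for the density ratio and 0.49 to 0.75 for the enrichment difference. With the replicate block the common share kept its difference of -31.3 (exact sign-flip p = 0.5, the smallest possible for 2 pairs). The labels do not say that a letter marks a shared culture.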
